A study of Homo sapiens with 4 samples.

Results

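Thrombospondins are large secreted glycoproteins that cells place in the extracellular matrix, where they bind receptors, growth factors and proteases. The genes described here are THBS1, the transcript THBS1-IT1 that lies in an intron of THBS1, THBS2, THBS3 and CD47, a cell surface receptor of THBS1. They are 5 of the 60725 genes counted, and 4 of them were among the 15356 genes with enough reads to be tested. The set was chosen because the counts of THBS1 and THBS1-IT1 were both higher after TOP2B knockdown, so these differences are given as a description with no p-value, and no p-value is given for the other 3 genes either, which come from the same comparison.

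THBS1 is a trimeric matricellular protein, one that signals to cells from the matrix without building it. Its type 1 repeats (TSR) bind CD36 and can release active TGF-beta from its latent form, and its C-terminal part binds CD47, through which it is known to dampen nitric oxide signalling in blood vessels. CD47 is also the "do not eat me" signal that macrophages read through SIRPA. THBS2 is a close relative of THBS1, whereas THBS3, THBS4 and COMP form pentamers and have no type 1 repeats. TOP2B, the target of the knockdown, is a topoisomerase that passes one DNA double strand through another.

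RNA was measured in RPE1 SunTag cells, which are hTERT-RPE1 cells (a retinal pigment epithelial line immortalized with telomerase) that carry the SunTag system, in both groups. By the treatment text of the labels, the control group received 10 nM of Silencer Select Negative Control No. 2 siRNA, called scramble in the titles, and the TOP2B knockdown group received 10 nM of the Dharmacon ON-TARGETplus SMARTpool against TOP2B. Cells were transfected again after 48 h and harvested 72 h later, on day 5. Each group had 2 libraries, and these RNA data rest on 1 cell line. In them 1 control siRNA was set against a pool of siRNAs. Effects of the pool on other targets thus cannot be told apart from the loss of TOP2B.

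The libraries held between 20310259 and 23887013 counted reads. TOP2B (ENSG00000077097, chr3:25597978-25664909, minus strand) had 3709 and 3272 reads in the control libraries and 324 and 268 in the knockdown libraries, so that 9.58% of the control level in CPM (counts scaled to the library's size) was left. Over all genes tested, edgeR's quasi-likelihood test with Benjamini-Hochberg adjustment called 10.8% at an adjusted p below 0.05, 6.66% as higher and 4.18% as lower after knockdown. The 2 libraries of one group did not overlap with those of the other for 54.3% of the genes. Of 7 markers of retinal pigment epithelium, MITF and OTX2 were found at 38.3 and 11.6 CPM in control cells and at 43.7 and 12.9 CPM after knockdown. BEST1 had 16 and 14 reads in control cells and 16 and 20 after knockdown, and PMEL 20 and 7 against 31 and 23. RPE65 and TYR had 0 reads in each library and RLBP1 at most 1. The keratins KRT8 and KRT18 had 1223 and 389 CPM in control cells and 962 and 298 CPM after knockdown. Endothelial and platelet cells are known sources of THBS1, and their markers were near 0. PECAM1 had 24 and 21 reads in control cells and 11 and 5 after knockdown, and VWF 15 and 13 against 5 and 9. CDH5 had at most 1 read, ITGA2B at most 5 and PF4 none, and the leukocyte marker PTPRC had at most 7. Of the 8 marker genes tested 0 were called by edgeR or DESeq2, and 3 (KRT18, PECAM1 and PMEL) had an unadjusted p below 0.05 in edgeR. As these were bulk samples, more cells with a transcript and more RNA per cell cannot be told apart.

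THBS1 (ENSG00000137801) lies on the plus strand of chromosome 15, chr15:39581079-39599466 in GRCh38, with 22 exons and 21 introns in its canonical transcript. THBS1-IT1 (ENSG00000276107), annotated as a long non-coding RNA, is 1 exon of 733 bases on the same strand, chr15:39586561-39587293. It begins 5482 bases after the start of THBS1 and lies whole within intron 7, which is 1783 bases long, and none of its bases is in an exon of THBS1. Reads in this stretch can come from a transcript of its own or from THBS1 RNA that still holds the intron, and the counts cannot tell these apart.

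**Figure D1:**
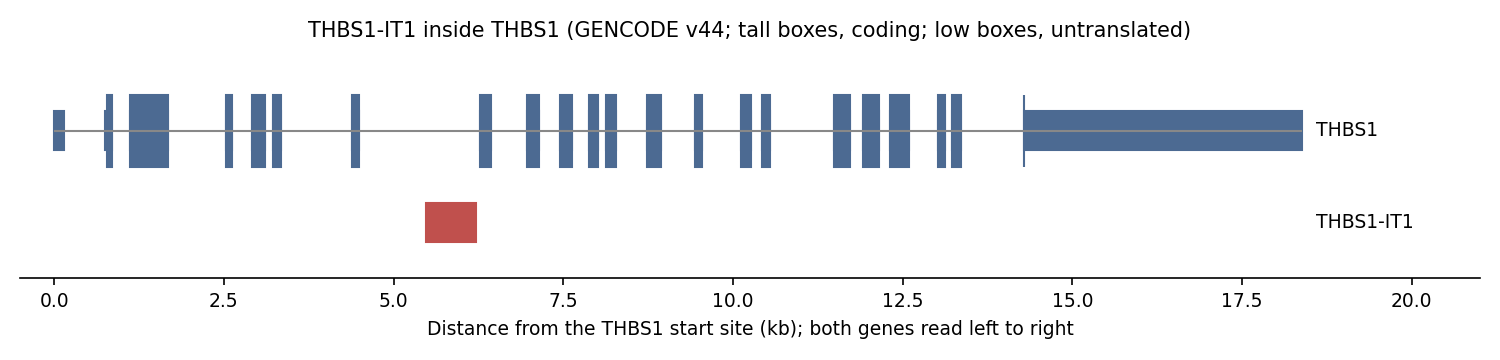
Map of THBS1 and THBS1-IT1 in kb from the start of THBS1, with exons as boxes (tall, coding; low, untranslated) and introns as the line. THBS1-IT1 sits in intron 7 of the 21 introns, 5482 bases from the start.

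The stretches before the RefSeq starts of both transcripts are shown because both had more reads after knockdown, and they have little in common. They are 250 bases of RefSeq promoter windows (GRCh38.p14, plus strand, 5′ to 3′), chr15:39580829-39581078 for THBS1 and chr15:39585876-39586125 for THBS1-IT1. The RefSeq start of THBS1 is that of GENCODE given above, whereas RefSeq starts THBS1-IT1 at 39586126, which is 435 bases before the GENCODE start. The THBS1-IT1 stretch thus lies before the RefSeq start and not next to the GENCODE one, and lies within intron 7. Capitals mark GC boxes (GGGCGG, the motif bound by SP1) and CCAAT boxes (CCAAT), searched on both strands.
THBS1: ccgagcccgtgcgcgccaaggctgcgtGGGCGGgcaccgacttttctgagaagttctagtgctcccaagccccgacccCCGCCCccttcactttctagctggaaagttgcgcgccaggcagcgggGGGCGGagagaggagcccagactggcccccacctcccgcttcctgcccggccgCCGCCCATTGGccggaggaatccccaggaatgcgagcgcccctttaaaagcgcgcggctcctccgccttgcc
THBS1-IT1: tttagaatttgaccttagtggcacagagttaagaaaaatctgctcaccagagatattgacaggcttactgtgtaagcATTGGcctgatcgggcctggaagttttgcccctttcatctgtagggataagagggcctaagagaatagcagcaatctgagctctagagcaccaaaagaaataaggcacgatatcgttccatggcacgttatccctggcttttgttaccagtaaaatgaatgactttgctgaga

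All 5 genes had a RefSeq window, which runs from 250 bases before to 50 bases after a RefSeq start, from which positions are counted. Bases G and C made up 70% of the THBS1 window and 41.3% of the THBS1-IT1 window, and 79.7% and 13.6% of 35116 windows had a lower content. The THBS1 window held 4 GC boxes, at positions -223, -172, -125 and -72 from the start, the last of them next to a CCAAT box at -66, and 45% of all windows held a GC box. The THBS1-IT1 window held none, and its 1 CCAAT box was at -173, a motif found in 34.6% of windows. After the RefSeq start, and still before the GENCODE start, it also held an AP-1 motif (TGANTCA, in 7.71% of windows) at 35 and a TATA motif (TATAAA, in 11.5%) at 27, which overlapped with neither other motif. The letters of the EGR1 motif (GCGGGGGCG, in 5.07%), of the E-box (CACGTG, in 7.26%) and of the CArG box (in 1.29%) were in neither window. These matches describe letters and not bound sites.

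THBS1 was among the most abundant RNAs of these cells, and its level after TOP2B knockdown was 4-fold that of the control. It had 15606 and 11922 reads in the control libraries and 47866 and 50012 in the TOP2B knockdown libraries, which is 651 and 522 CPM against 2256 and 2477 CPM. Both knockdown libraries lay far above both controls, with means of 587 ± 90.9 CPM and 2367 ± 156 CPM (SD, n = 2 each). The log2(fold change) of 2.01 ± 0.18 (SE) is a fold of 4.03. The share of all counted reads that fell on THBS1 was 0.0653% and 0.0521% in the control libraries and 0.227% and 0.246% after knockdown. Ordered by CPM, THBS1 was at rank 196 of the 15356 genes in control cells and at rank 21 after knockdown. Ordered by CPM per length of exon, it was at rank 508 of 15183 genes in control cells and at rank 79 after knockdown.

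Other genes rose by larger factors, but from lower levels. There were 24 called genes with a larger log2(fold change) than THBS1, and 0 of these had a control mean above 100 CPM. Among the 196 genes at least as abundant in control cells as THBS1 (itself included), edgeR called 7 as higher and 11 as lower. Of all genes tested, 6.66% were called higher and 4.18% lower. The 7 count THBS1 itself, which was chosen for its rise, so its place among them is no result. THBS1 had the largest log2(fold change) of these 196, which restates that it was chosen for its rise. It was followed by RPLP0, a protein of the large ribosomal subunit, with 1.22 ± 0.19 (SE), by FN1, which encodes the matrix protein fibronectin, with 1.13 ± 0.21, and by AXL, a receptor tyrosine kinase, with 1.11 ± 0.16.

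**Figure D2:**
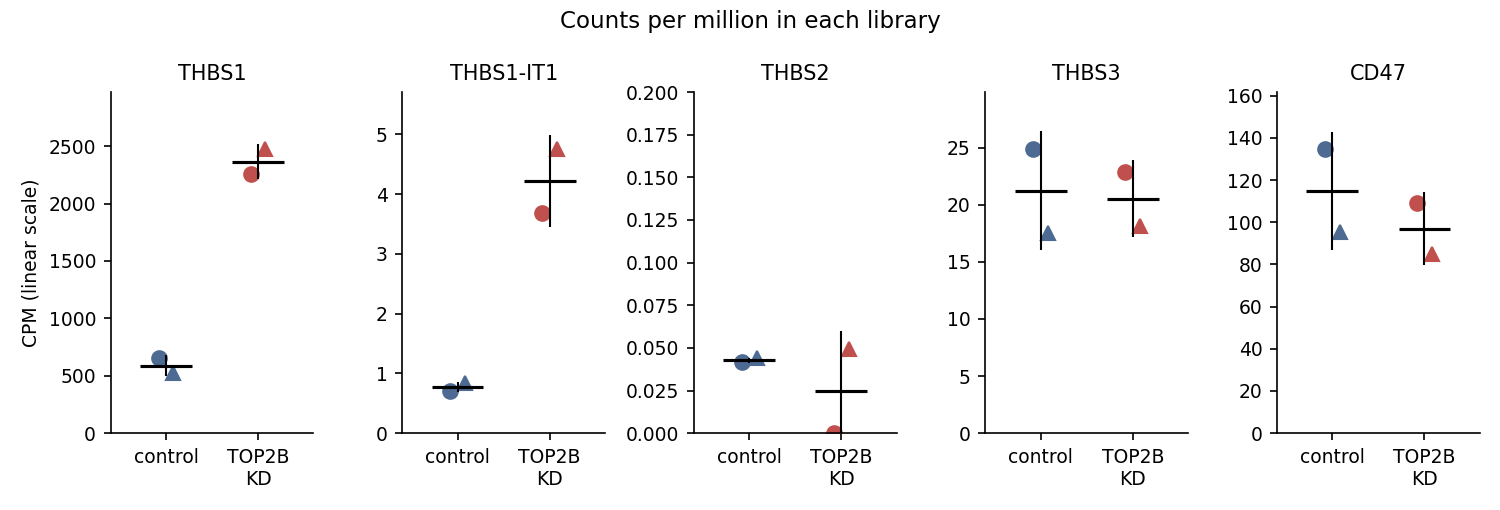
CPM of the 5 genes in each library on linear axes that start at 0, with circles for replicate 1, triangles for replicate 2, horizontal lines for means and vertical lines for SD (n = 2). THBS1 and THBS1-IT1 are higher in both knockdown libraries than in both controls, THBS2 is near 0, and the groups overlap for THBS3 and CD47.

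THBS1-IT1 was a rare transcript that differed in the same direction. It had 17 and 19 reads in the control libraries and 78 and 96 in the TOP2B knockdown libraries. In CPM this was 0.709 and 0.833 against 3.68 and 4.76, and here too each knockdown library was above each control. The means were 0.771 ± 0.0873 CPM and 4.22 ± 0.763 CPM (SD, n = 2 each), and the log2(fold change) of 2.44 ± 0.30 (SE) is a fold of 5.44.

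Relative to its host, THBS1-IT1 had 1.09 and 1.59 reads per 1000 THBS1 reads in the control libraries and 1.63 and 1.92 in the TOP2B knockdown libraries. Taken per base of exon, this was 1.36% and 1.99% of the read density of THBS1 in control cells and 2.04% and 2.4% after knockdown. As a share of the reads of both genes, the exact 95% Clopper-Pearson intervals per 1000 reads were 0.634 to 1.74 and 0.958 to 2.48 in the controls and 1.29 to 2.03 and 1.55 to 2.34 after knockdown. The interval of each knockdown library thus overlapped with those of both controls, so that at this depth the ratio was not shown to differ. These intervals cover counting error only, since reads without molecular identifiers are not independent molecules.

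The same kind of pair was looked up across the table. There were 127 transcripts annotated as intronic (names in IT), 126 of them with their host gene in the table, and in 8 pairs both had enough reads to be tested. Among these is the THBS1 pair, whose values chose the genes described here and are not set against the others by their calls. In the other 7 pairs 0 transcripts and 0 hosts were called by edgeR or DESeq2, and at an unadjusted p below 0.05 in edgeR there was 1 transcript, ANKRD10-IT1, and no host. Transcript and host had the same sign in 5. Their log2(fold change) ran from -0.68 (HM13-IT1) to 0.96 (ANKRD10-IT1) for the transcripts and from -0.32 (RPS6KA2) to 0.27 (ANKRD10) for the hosts. ANKRD10-IT1 had 72 and 41 reads in control cells and 112 and 82 after knockdown. In control cells the other 7 transcripts had between 1.45 and 68.3 reads per 1000 reads of the host, with a median of 17.3, and THBS1-IT1 was below all of them with 1.31 when both libraries were summed. The next lowest, RPS6KA2-IT1 with 1.45, rested on 9 and 11 control reads. After knockdown the summed value of THBS1-IT1 was 1.78 and that of RPS6KA2-IT1 1.73, the latter from 11 and 6 reads. With so few reads, the order of these 2 is not settled in either group.

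**Figure D3:**
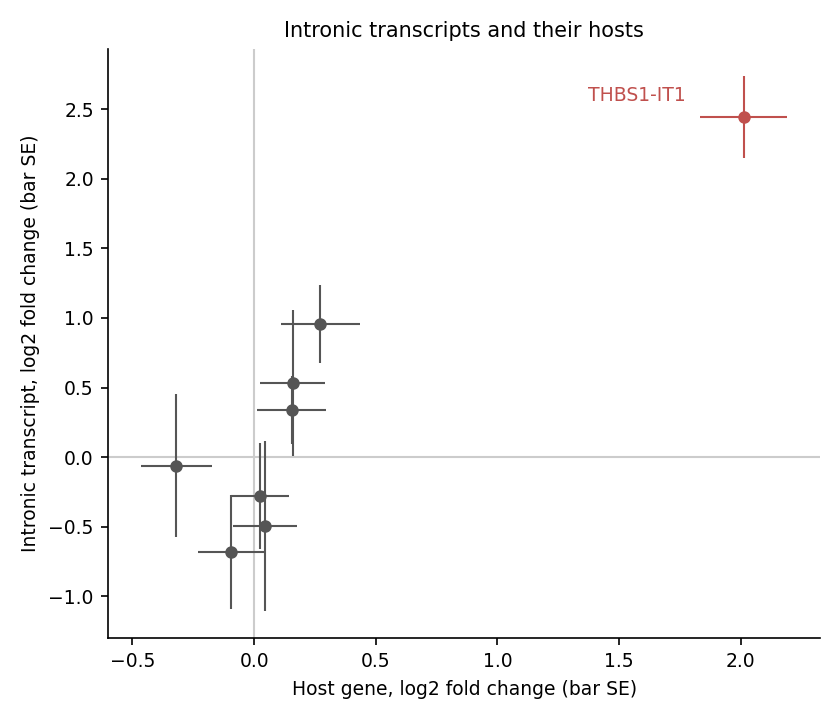
Log2(fold change) of 8 intronic transcripts (vertical axis) against that of their host genes (horizontal axis), with standard errors as bars. THBS1-IT1 and THBS1 stand at 2.44 and 2.01, while the other 7 transcripts lie between -0.68 and 0.96 and their hosts between -0.32 and 0.27.

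Of the other thrombospondins, THBS3 had a middle level, and THBS2, THBS4 and COMP had few or no reads in both groups. Per length of exon, THBS3 was above 53.2% of the tested genes with a length in control cells and 52.2% after knockdown. THBS2 (ENSG00000186340, chr6:169215780-169254050, minus strand) had 1 and 1 reads in the control libraries and 0 and 1 after TOP2B knockdown. Each library was under the floor of 3 counts, which stands for 0.126 to 0.148 CPM here, so no fold was computed and a change in THBS2 was not detectable at this depth.

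THBS3 (ENSG00000169231, chr1:155195588-155209051, minus strand), a pentameric member known from skeletal tissue, had 597 and 400 reads in control cells and 486 and 367 after knockdown. In CPM this was 24.9 and 17.5 against 22.9 and 18.2, and the groups overlapped. The means were 21.2 ± 5.21 and 20.5 ± 3.34 CPM (SD, n = 2 each) and the log2(fold change) was -0.047 ± 0.19 (SE). Its sign turned with the libraries used: it was 0.23 without control replicate 1 and 0.12 without knockdown replicate 2. Of its exon bases, 29.1% are shared with MTX1 or THBS3-AS1 on the other strand, and the strand setting of the counts is not stated. MTX1 itself had a log2(fold change) of 0.22 ± 0.15 (SE).

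Of the 2 remaining family members, THBS4 had 13 and 20 reads in control cells and 18 and 13 after knockdown, with a log2(fold change) of 0.081 ± 0.42 (SE; adjusted p = 0.93, edgeR). COMP, the thrombospondin of cartilage, had 0 reads in each library, which allows up to 3 reads in each.

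CD47 (ENSG00000196776, chr3:108043091-108091862, minus strand) was well expressed in both groups. It had 3231 and 2172 reads in the control libraries and 2318 and 1711 in the TOP2B knockdown libraries, which is 135 and 95.2 CPM against 109 and 84.8 CPM. Replicate 1 was the higher library in both groups and the groups overlapped. The means were 115 ± 28 and 97.0 ± 17.3 CPM (SD, n = 2 each), and the log2(fold change) was -0.25 ± 0.18 (SE). It was 0.026 without control replicate 1 and -0.47 without control replicate 2, so its sign turned without the first of these libraries. Taken by replicate number, the log2 ratio of knockdown to control was -0.30 for replicate 1 and -0.17 for replicate 2.

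The ratio of replicate 1 to replicate 2 was similar for CD47 and THBS3. For CD47 it was 1.42 in control cells and 1.29 after knockdown, and for THBS3 it was 1.42 and 1.26. For THBS1 it was 1.25 and 0.911, and for THBS1-IT1 0.852 and 0.773.

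Set side by side per length of exon (CPM per kb), the order of the levels was THBS1, CD47, THBS3, THBS1-IT1 and THBS2 in control cells. THBS1 had 64.1 ± 9.92, CD47 14.0 ± 3.4, THBS3 4.59 ± 1.13 and THBS1-IT1 1.05 ± 0.119 CPM per kb (SD, n = 2). After knockdown THBS1 had 258 ± 17.1, CD47 11.8 ± 2.10, THBS1-IT1 5.75 ± 1.04 and THBS3 4.44 ± 0.723 CPM per kb. THBS1-IT1 was thus below THBS3 in each control library and above it in each knockdown library, where the lowest THBS1-IT1 library, at 5.02, and the highest THBS3 library, at 4.96, nearly met. The order of these 2 after knockdown depends on the length used: with the longest coding transcript as its length THBS3 had 7.16 and 5.68 CPM per kb after knockdown, a mean of 6.42 that is above the 5.75 of THBS1-IT1, and their libraries overlapped. The level of ligand RNA over that of receptor RNA, THBS1 over CD47 per kb, went from 4.59 in control cells to 21.9 after knockdown.

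Genes known to work with thrombospondins were grouped into 8 lists by role, written from general knowledge and without the 5 genes themselves. The lists were written with earlier results of these data known, so the share called can reflect that choice. Of their 53 genes 49 were tested, and edgeR called 16 of these, 10 higher and 6 lower, which is 32.7% beside the 10.8% of all genes. The median log2(fold change) of the 49 was 0.22, and that of all genes was -0.0029. The lists are small and share pathways, and nothing is drawn from this share about the lists as such.

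**Figure D4:**
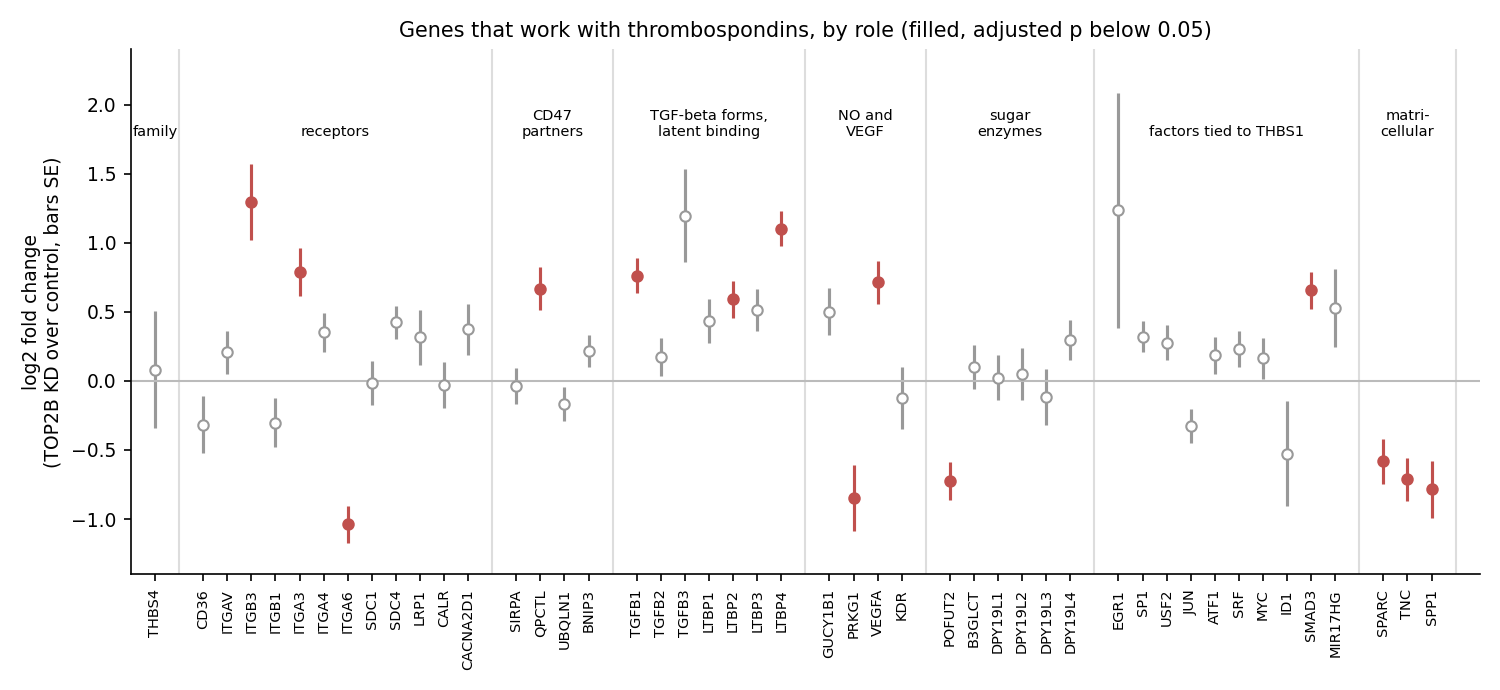
Log2(fold change) of most of the tested partner genes, ordered by role, with standard errors as bars and filled points for genes called at an adjusted p below 0.05. POSTN, with 1 read in both control libraries together, is not drawn. TGFB1, LTBP2 and LTBP4 lie above 0 among the TGF-beta genes, and the 3 matricellular genes drawn lie below 0.

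Among 12 other receptors and surface partners of thrombospondins, 2 were called higher and 1 lower, with a median log2(fold change) of 0.26. ITGB3, the integrin chain that pairs with ITGAV as a vitronectin and thrombospondin receptor, rose from 31 and 25 reads to 65 and 57 reads, with a log2(fold change) of 1.30 ± 0.28 (SE; adjusted p = 0.0168, edgeR), though 33.2% of its exon bases are shared with another gene. Its partner ITGAV was at 0.21 ± 0.16 (adjusted p = 0.448). ITGA3, a laminin-binding integrin chain, rose from 32880 and 25831 reads to 49349 and 40312 reads, a log2(fold change) of 0.79 ± 0.18 (adjusted p = 0.0208), a call lost without control replicate 2 (0.66) or knockdown replicate 1 (0.68). ITGA6, another laminin-binding chain, fell from 7631 and 6718 reads to 3319 and 2867 reads, a log2(fold change) of -1.04 ± 0.13 (adjusted p = 0.00177). CD36, the receptor of the type 1 repeats, had 248 and 163 reads in control cells and 154 and 137 after knockdown (-0.32 ± 0.21, adjusted p = 0.373). LRP1, the endocytic receptor that clears THBS1, was at 0.31 ± 0.20 (adjusted p = 0.348), and CALR, its partner in binding THBS1 at the surface, at -0.030 ± 0.17 (adjusted p = 0.936).

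Around CD47 itself, 1 of 4 tested genes was called. QPCTL, the enzyme that modifies the end of CD47 to which SIRPA binds, rose from 18 ± 3.09 to 28.7 ± 3.29 CPM (SD, n = 2), with a log2(fold change) of 0.67 ± 0.16 (SE; adjusted p = 0.0254, edgeR). Without control replicate 2 or knockdown replicate 1 it was 0.51 and 0.55 and no longer called. SIRPA, the counter-receptor of CD47, was at 169 ± 14.7 CPM in control cells and 165 ± 15.1 CPM after knockdown, with a log2(fold change) of -0.037 ± 0.13 (adjusted p = 0.894).

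Of 7 TGF-beta ligands and latent TGF-beta binding proteins, which hold TGF-beta in the inactive form that THBS1 can open, 3 rose and 0 fell, with a median log2(fold change) of 0.59. TGFB1 had 2900 and 2417 reads in the control libraries and 4108 and 3854 after knockdown, which is 113 ± 10.6 against 192 ± 1.92 CPM (SD, n = 2). Its log2(fold change) was 0.76 ± 0.13 (SE; adjusted p = 0.00562, edgeR). LTBP4 rose from 50.3 ± 4.56 to 108 ± 9.94 CPM, a log2(fold change) of 1.10 ± 0.13 (adjusted p = 0.00134), and LTBP2 by 0.59 ± 0.13 (adjusted p = 0.0216), a call lost without control replicate 2 or knockdown replicate 2 (0.51 each). The other 4 had values between 0.18 (TGFB2) and 1.19 (TGFB3), and the adjusted p was 0.0501 for TGFB3, with 24 and 18 against 36 and 49 reads, and 0.0558 for LTBP3.

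In the nitric oxide and VEGF group, which THBS1 is known to restrain, 4 of 6 genes were tested and 1 was called in each direction. VEGFA, the angiogenic growth factor, rose from 189 ± 36.1 to 309 ± 9.74 CPM (SD, n = 2), with a log2(fold change) of 0.71 ± 0.15 (SE; adjusted p = 0.0182, edgeR), and lost the call without control replicate 2 (0.54). PRKG1, the cGMP-dependent kinase downstream of nitric oxide, fell from 88 and 83 to 44 and 40 reads, a log2(fold change) of -0.85 ± 0.24 (adjusted p = 0.0484). DESeq2, scaling by library size alone and each fit without a library did not call PRKG1, with values between -0.88 and -0.81. NOS3 had at most 2 reads and GUCY1A1 none.

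The list of 6 enzymes that add sugars to type 1 repeats, or belong to a family of such enzymes, held 1 called gene. POFUT2, which puts the fucose on folded repeats, fell from 126 ± 14.7 to 76.2 ± 9.41 CPM (SD, n = 2), a log2(fold change) of -0.72 ± 0.14 (SE; adjusted p = 0.0107, edgeR). B3GLCT, which adds a glucose to that fucose, was at 0.10, and the 4 DPY19L genes, of the C-mannosyltransferase family, were between -0.12 and 0.30.

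Of 11 factors known to act on THBS1 transcription or RNA, 2 rose and 0 fell, with a median log2(fold change) of 0.28. SMAD3, which carries the TGF-beta signal to the nucleus, rose from 172 ± 3.8 to 270 ± 26.3 CPM (SD, n = 2), a log2(fold change) of 0.65 ± 0.13 (SE; adjusted p = 0.0135, edgeR), and was not called without knockdown replicate 2 (0.56). ID1, a repressor, was at -0.53 (adjusted p = 0.424), and MIR17HG, the host of the repressing miR-17 cluster, at 0.53 (adjusted p = 0.276). JUN was at -0.32 (adjusted p = 0.123), and MYC, ATF1, SRF, USF2 and SP1 lay between 0.16 and 0.32 and were not called. EGR1, an immediate early gene, had 7 and 43 reads in control cells and 11 and 93 after knockdown. Its log2(fold change) was 1.24 ± 0.85 (SE; adjusted p = 0.401, edgeR). Replicate 2 was far above replicate 1 in both groups. At each replicate number the knockdown library was the higher, with 0.518 against 0.292 CPM and 4.61 against 1.88 CPM.

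All 4 other matricellular genes listed were called, 1 higher and 3 lower. This short list does not stand for all matricellular genes. POSTN, which encodes periostin, had 1 and 0 reads in the control libraries and 32 and 14 after knockdown (adjusted p = 0.00544, edgeR), a ratio of 51.9 with an exact 95% counting interval of 8.87 to 2095. Its fitted log2(fold change) of 5.36 was 4.56 without control replicate 2 and 7.57 without control replicate 1, where the control left has 0 reads and the value depends on the prior count. POSTN passed the count filter only through the knockdown libraries, where it is high, so its call was partly set by the filter. Without either knockdown library POSTN fell under the filter and was not tested, and DESeq2 gave it no adjusted p. SPARC, one of the more abundant genes here, fell from 1509 ± 168 to 1008 ± 59.5 CPM (SD, n = 2), a log2(fold change) of -0.58 ± 0.16 (SE; adjusted p = 0.0485). SPARC lost the call in each fit without a library (-0.69 to -0.47) and with library size alone. TNC (tenascin C) fell by 0.71 ± 0.16 (adjusted p = 0.019) and SPP1 (osteopontin) by 0.79 ± 0.21 (adjusted p = 0.0398) on the log2 scale. The call for TNC was lost without knockdown replicate 2 (-0.55), and that for SPP1 without control replicate 1 (-0.57) or knockdown replicate 2 (-0.51).

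Type 1 repeats also occur in other secreted and membrane proteins. Of 55 such genes 30 were tested, and edgeR called 3 of them, 10% beside the background of 10.8%, with a median log2(fold change) of 0.0047. Without control replicate 1 the count was 6. ADAMTS15, a protease of matrix proteoglycans, fell from 2093 and 1730 to 662 and 697 reads, a log2(fold change) of -1.31 ± 0.13 (adjusted p = 0.000624). ADGRB2, a brain angiogenesis inhibitor of the adhesion receptor class, rose from 759 and 584 to 1473 and 1140 reads (1.14 ± 0.15, adjusted p = 0.00216). CCN2, the connective tissue growth factor, rose from 186 ± 3.44 to 289 ± 16.1 CPM (SD, n = 2), a log2(fold change) of 0.64 ± 0.13 (adjusted p = 0.0128), and was not called without control replicate 2 (0.63) or knockdown replicate 2 (0.59).

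The genes around each locus were compared next. The 5 nearest tested genes on either side of THBS1, THBS2, THBS3 and CD47 make 40 genes, and edgeR called 0 of them, beside 10.8% of all genes tested. At an unadjusted p below 0.05 there were 6, DESeq2 called 1, and fits without 1 library (control replicate 1 or 2, knockdown replicate 1 or 2) called 1 or 2.

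The 10 neighbours of THBS1 had log2(fold change) values between -0.44 and 0.35, with a median of 0.0078, against 2.01 for THBS1. Before it lie SPRED1, an inhibitor of Ras signalling (start at -1328 kb, 0.13 ± 0.11 (SE), adjusted p = 0.512, edgeR), and FAM98B (-1127 kb, 0.35 ± 0.13, adjusted p = 0.115). After it lie the non-coding gene ENSG00000261136 (201.5 kb, -0.44 ± 0.42, adjusted p = 0.559) and FSIP1 (201.8 kb, -0.22 ± 0.36, adjusted p = 0.755). FSIP1 runs on the minus strand and overlaps with THBS1, and had 29 and 21 reads in control cells and 19 and 19 after knockdown. Of the exon bases of THBS1, 7.58% are shared with FSIP1 or THBS1-AS1, and the strand setting of the counts is not stated. With all tested genes that start within 1 Mb, 7 of 88 were called, 7.96% beside the 10.8% of all genes: DISP2 among 17 genes near THBS1 and 6 of 57 near THBS3.

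**Figure D5:**
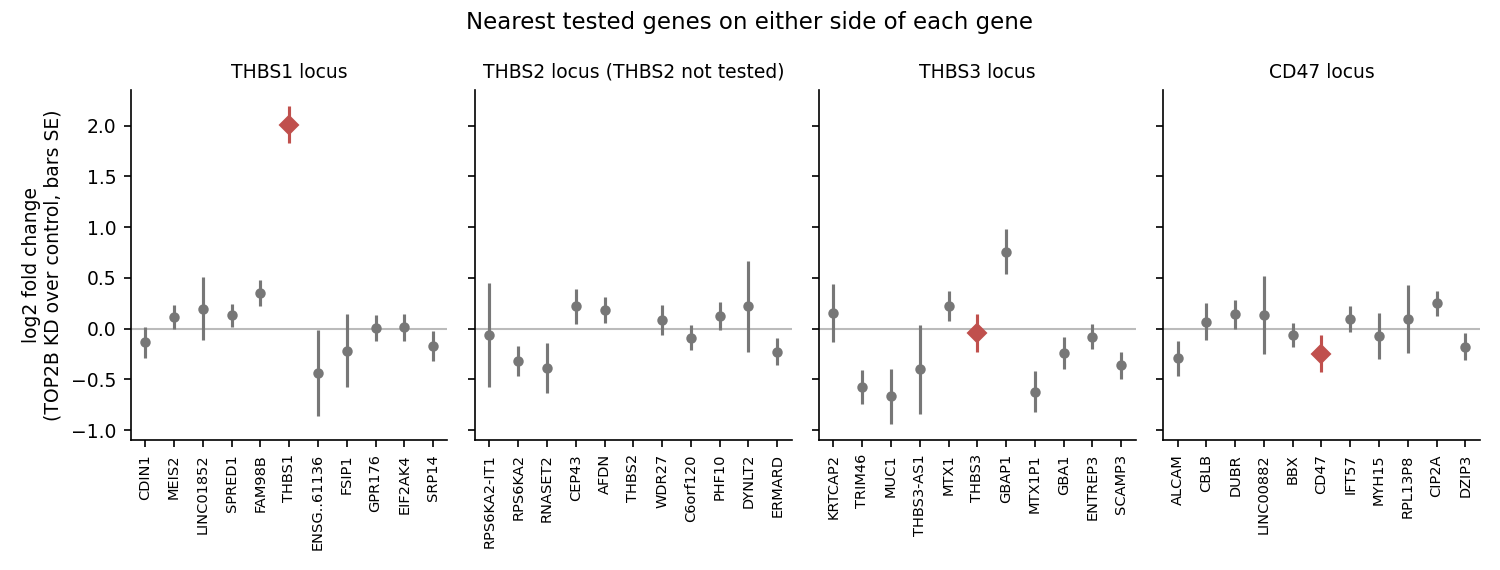
Log2(fold change) with standard error of the 5 nearest tested genes on either side of each locus (grey) and of the gene itself (red diamond), in chromosomal order of start sites. THBS1 stands at 2.01 among neighbours between -0.44 and 0.35, and CD47 and THBS3 lie within the range of theirs.

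The genes whose profile over the 4 libraries was most like that of THBS1 were sought among the 13326 genes that averaged 1 CPM or more, by the root mean square difference of log2 CPM after centring each gene. The nearest was RPS6KA5, a kinase that phosphorylates histones and CREB, with a difference of 0.144. It was followed by LUZP2 (0.160), WDR18, a ribosome assembly factor (0.161), BACE2, a protease related to the beta-secretase (0.178), and HSF4, a heat shock factor of the lens (0.180). THBS1-IT1 came at rank 28 with 0.250. WDR18 had 229 and 232 reads in control cells and 740 and 764 after knockdown, and BACE2 had 710 and 587 against 2151 and 1773. With 4 libraries in 2 groups, likeness here mostly restates a rise of about the same size.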

How the data were processed

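RNA-seq was run on 2 control and 2 TOP2B knockdown libraries. The authors checked reads with FastQC 0.11.6, aligned them to GRCh38 with STAR 2.5.4a and counted reads per Gencode v24 gene. The deposited values are these raw counts, without normalization. Whether reads were counted by strand is not given in the sources used here: the methods give single-end reads, but the columns are tagged as stranded and paired-end, and the unstranded setting the methods name for STAR is that of its signal tracks. The table holds 4 further columns that repeat the others and were not used. Genes that reached 10 counts in 2 or more libraries were tested on the deposited counts with edgeR 4.0.16 in R 4.3.3 (glmQLFit and glmQLFTest, TMM, Benjamini-Hochberg over all 15356 genes). CPM used edgeR's scaled library sizes, and log2 CPM a prior count of 2. The control and knockdown libraries are called independent replicates in the methods.

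The 5 genes, the partner lists and the markers were chosen with earlier results of these data known. The rule for named genes took THBS4, COMP, CD36, SIRPA, TGFB1, ITGAV, ITGB3, LRP1 and CALR, each called gene of the lists, the 2 nearest neighbours on either side of THBS1, and the 5 genes most like THBS1. Other genes were named after their values were seen. Of the partner genes called, 1 is not reported here. Positions, exon lengths and neighbours came from GENCODE v44 (GRCh38), and promoter windows from RefSeq. Alternatives were DESeq2 size factors, the Wald test of DESeq2 1.42.0, no filter, library size alone, the replicate number as a block, leaving out each library, another gene length and a wider neighbourhood. The scripts were tested on simulated data.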

Additional observations from a re-analysis of the deposited data

How the results depend on the processing

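With 2 libraries per group, p-values rest on few degrees of freedom, and a fit without a library assumes that the lone sample varies like the other group. The 1665 calls over all genes were 1210 to 1538 without a library and 1562 with DESeq2, and the 16 partner genes called were 11 to 18 without a library. THBS1 kept a log2(fold change) between 1.87 and 2.18 and THBS1-IT1 between 2.26 and 2.62 without a library. The control and knockdown libraries share replicate numbers, with only 2 pairs and no stated pairing, and their replicate 1 deviations had a correlation of 0.479 across genes. With the replicate number as a block the calls were 6786 over all genes, 39 partner genes, 18 other genes with type 1 repeats and 14 neighbours, and the log2(fold change) of CD47 was -0.24. The 3 calls among other genes with type 1 repeats were 5 with no filter on low counts and 3 to 6 without a library. The 0 calls among neighbours were 1 with the DESeq2 Wald test, 3 with no filter, 1 to 2 without a library and 7 within 1 Mb. Genes near 0 turned sign without a library: THBS4 ran from -0.23 to 0.47, SIRPA from -0.13 to 0.062 and CALR from -0.15 to 0.090. ENSG00000261136, at -0.44 with all libraries, turned sign as well and ran from -0.92 to 0.19. With the longest coding transcript as length, THBS1 had 75.3 and 304, CD47 21.7 and 18.3 and THBS3 6.63 and 6.42 CPM per kb in control and knockdown cells, which puts THBS3 above the 5.75 of THBS1-IT1 after knockdown and leaves the order otherwise as it was. The cause of these differences was not tested.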
